A study of Mus musculus with 24 samples.

Results

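The comparison described here is the response of the mouse liver to dietary cholesterol that was shared by 2 base diets. It was measured as the mean of 2 contrasts, HS_Chol over HS and Chol_CA over CA, each given equal weight. HS_Chol is high sucrose with 2% cholesterol (3 libraries), HS is high sucrose without it (5 libraries), Chol_CA is 2% cholesterol with cholic acid (4 libraries) and CA is cholic acid without cholesterol (4 libraries). All mice were wild-type C57BL/6, began their diet at 8 to 10 weeks of age and ate it for 8 weeks, and RNA came from whole liver. These 16 libraries are 16 of the 20 that could be matched to a diet, and 17 of the series' 24 labelled samples belong to the 4 diets. The remaining 4 matched libraries, from normal chow, entered the fit to estimate the spread and no contrast. The 2 contrasts share no library, so a gene that moved the same way in both did so in separate samples. The labels number the livers of a diet and say no more about separate animals, so every p-value measures the spread between these samples. Fewer cells of a type and less RNA per cell cannot be told apart in RNA from whole tissue.

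Cholesterol in the cell is sensed in the endoplasmic reticulum. When it is scarce, SCAP escorts the transcription factor SREBP2 to the Golgi, where it is cut free and turns on the enzymes of cholesterol synthesis; when it is abundant, INSIG proteins hold the complex back. Oxysterols, made from surplus cholesterol, activate the nuclear receptor LXR, which raises sterol exporters and SREBP1c, the driver of fatty acid synthesis. The liver also disposes of cholesterol as bile acids, and bile acids returning to it act through the receptor FXR to hold back Cyp7a1, the rate-limiting enzyme of their synthesis. Cholic acid is such a bile acid and also aids cholesterol uptake in the gut.

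Across 12595 genes tested, the mean of both contrasts was higher with cholesterol, with the same sign on each base diet, for 1046 genes (8.3% of those tested), and lower for 541 (4.3%), by edgeR's quasi-likelihood test at a Benjamini-Hochberg adjusted p under 0.05. Much of that list was carried by the cholic acid diets. Among the genes that rose, the median log2 fold change was 0.61 for HS_Chol over HS and 1.44 for Chol_CA over CA, and among those that fell it was −0.35 and −0.58. Of the 1046 that rose, 407 had an unadjusted p under 0.05 on sucrose, 948 on cholic acid and 309 on both. Of the 541 that fell, 254 had one on sucrose, 461 on cholic acid and 174 on both. Another 197 genes (1.56%) passed in the mean with opposite signs on the 2 base diets and are not counted as shared. Over all genes the log2 fold changes of the 2 contrasts had a Pearson r of 0.13, and 52.7% of genes had the same sign. That correlation is across genes, which are not independent replicates. Without the library HS_Chol_0 (numbers are those of the deposited table) the counts were 555 higher and 360 lower.

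Taken one at a time, HS_Chol against HS gave 201 higher (1.6%) and 82 lower genes (0.651%), and Chol_CA against CA gave 1693 higher (13.4%) and 983 lower (7.8%). Of the genes called on sucrose, 20 of the 201 that rose (9.95%) and 27 of the 82 that fell (32.9%) were called in the same direction on cholic acid, which is 1.18% of the 1693 that rose there and 2.75% of the 983 that fell. Set beside the shares of all genes called on cholic acid, 13.4% higher and 7.8% lower, the share was not above the background for the rises and was above it for the falls. With DESeq2 it was 14.96% of 274 rises, beside 14.1% of all genes, and 35.98% of 164 falls, beside 9.46%. The 20 and 27 genes of the edgeR fit, 47 in all (0.159% of all tested as rises and 0.214% as falls) passed in each contrast by its own adjusted p, a definition added after the data had been seen. The stricter test fixed for the comparison, which adjusts the larger of a gene's 2 p-values over all genes, called 1 gene higher (0.00794%), Lpl, and none lower. With DESeq2 the stricter test called 8 higher and 18 lower. The difference between the contrasts, called the cholesterol interaction, passed for 756 genes (6% of those tested). The genes called as shared number 1587, which is 12.6% of those tested, and the interaction passed for 128 of these 1587. It passed for 4 of the 47, namely Sqle, Abcg5, Fdps and Cyp7a1.

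**Figure D1:**
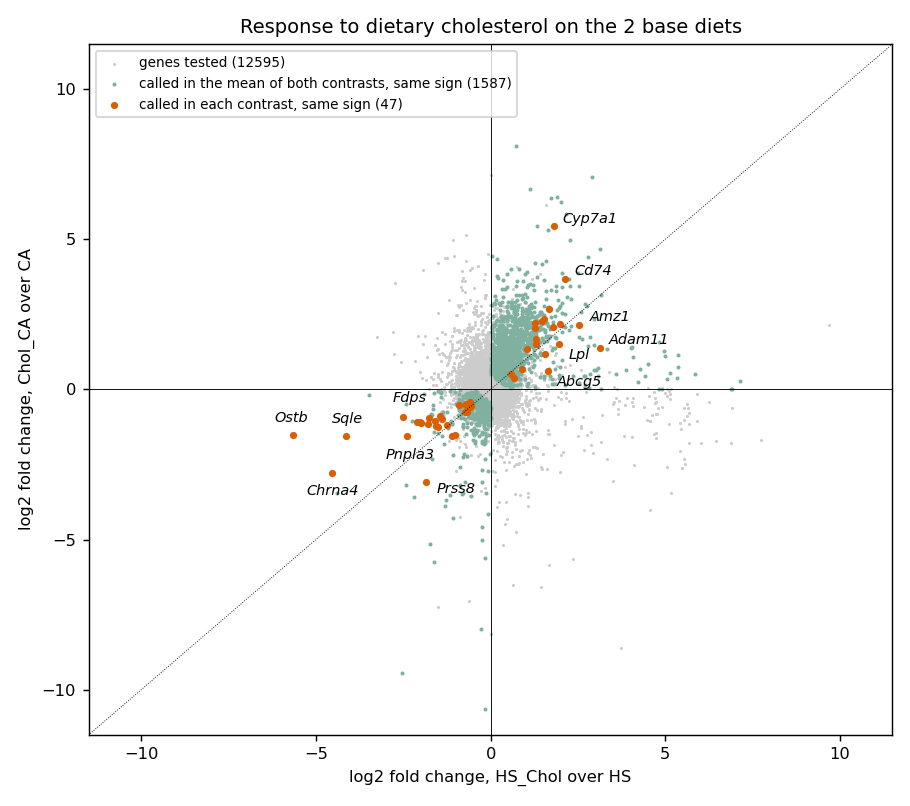
Log2 fold change of each of the 12595 genes tested for HS_Chol over HS (horizontal axis) and Chol_CA over CA (vertical axis), with the dotted line marking equal change. Green points are the 1587 genes called in the mean with the same sign, orange points the 47 called in each contrast; 22 of the 27 orange falls are larger for HS_Chol over HS, and a band of genes at the right is high for HS_Chol over HS and near or below 0 for Chol_CA over CA.

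The libraries differed in ways that touch these counts. Levels are given as CPM, the reads of a gene per 1000000 reads of the effective library size. Total reads ran from 6110484 to 6709497 in HS_Chol, 6790751 to 7769883 in HS, 6750266 to 8886641 in Chol_CA and 7850495 to 10244277 in CA. Reads on the light-strand tRNA genes of mitochondrial DNA, which lie on the strand opposite to most mitochondrial mRNAs, were 673 to 900 per 1000000 heavy-strand mRNA reads in HS_Chol and at most 83.4 in all other libraries. Without the 4150 genes that an exon on the opposite strand overlaps or that match no annotated gene, 45 of 8440 genes rose and 35 fell in HS_Chol against HS; 5 of those rises (11.1%) and 14 of those falls (40%) were also called with Chol_CA, beside shares of all 8440 genes of 15.2% and 7.91%. These genes were removed before the fit, here and in the counts below. A lower count of a list can therefore come from members no longer tested. Of the genes called in each contrast, 11 of the 27 falls and 7 of the 20 rises are so overlapped or unmatched, beside 4150 of all 12595 genes. The falls are Hmgcs1, Fdft1, Lss, Cyp51, Acss2, Qdpr, Gls2, Echdc1, Prss8, Ostb and the unmatched AC115697.1. The rises are Gas7, Abcg5, Capn1, Cd72, Amz1, Zfp703 and Gramd1b. Set against each gene's mean level over all 20 libraries, levels decreased with exonic length (a negative length trend) in 1 of 3 HS_Chol, 3 of 5 HS, 2 of 4 Chol_CA and 1 of 4 CA libraries. The sign of this trend is relative to the average library. Liver transcripts were abundant in every library, but the summed level of 16 hepatocyte genes was lower with cholesterol, without overlap on either base diet. The sum was 90033 to 102240 CPM in HS_Chol livers, against 107081 to 123132 CPM in HS livers. With cholic acid it was 67063 to 84734 CPM in Chol_CA livers, against 92313 to 125373 CPM in CA livers. Of the 16 genes, 1 fell in the mean (6.25%, beside 4.3% of all genes), Alb, the gene of serum albumin, and none rose. Alb held more reads than any other of the 16. The median log2 fold change of the 16 was −0.05, with 0.05 on sucrose and −0.14 on cholic acid. Alb had 251248 to 753693 reads in each library, while the pancreatic lipase gene Pnlip had 0 reads and the muscle genes Acta1 and Ckm at most 2. Some other genes of the pancreas and gut list did have reads. Cela1, an elastase gene, had 23 to 38 reads in HS_Chol libraries, 46 to 117 in HS, 24 to 64 in Chol_CA and 29 to 51 in CA. Fabp2, a fatty acid binding protein gene, had 376 to 1022 reads in each library.

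Genes of cholesterol synthesis fell together on both base diets. Of 19 measured enzymes, 16 fell in the mean contrast (84.2%, beside 4.3% of all genes) and none rose. The median log2 fold change of the 19 was −1.17, beside 0.01 over all genes. The medians were −1.42 for HS_Chol over HS and −0.90 for Chol_CA over CA. The summed level of the 19 was 1402 to 1967 CPM in HS_Chol livers, against 2606 to 3356 CPM in HS livers, and 818 to 1212 CPM in Chol_CA livers, against 1314 to 1839 CPM in CA livers. 10 of the enzymes fell in each contrast by its own adjusted p. They run through the pathway: Hmgcs1 and Pmvk in the mevalonate arm, Fdps and Fdft1, which build the farnesyl and squalene units, Sqle and Lss, which open the sterol branch, and Cyp51, Tm7sf2, Sc4mol (now Msmo1) and Nsdhl, which trim lanosterol. The promoters of 3 of them are given because their genes fell in each contrast and SREBP2 acts through sterol regulatory elements with help from factors at CCAAT boxes. The windows hold 250 bases before and 50 bases after the annotated start, 5′ to 3′ on the gene's strand, from RefSeq on GRCm38.p6: Hmgcs1 at chr13:119690101-119690400 (plus strand), Nsdhl at chrX:72918271-72918570 (plus strand) and Cyp51 at chr5:4104648-4104947 (minus strand). Capitals mark TCACNCCAC, a form of the sterol regulatory element, and CCAAT, or their reverse complements.
Hmgcs1: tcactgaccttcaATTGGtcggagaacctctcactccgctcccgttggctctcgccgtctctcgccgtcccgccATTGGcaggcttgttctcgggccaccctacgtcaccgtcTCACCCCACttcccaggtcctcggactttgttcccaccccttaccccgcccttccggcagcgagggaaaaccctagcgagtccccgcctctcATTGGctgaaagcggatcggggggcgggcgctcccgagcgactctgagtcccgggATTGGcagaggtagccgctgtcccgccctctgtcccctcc
Nsdhl: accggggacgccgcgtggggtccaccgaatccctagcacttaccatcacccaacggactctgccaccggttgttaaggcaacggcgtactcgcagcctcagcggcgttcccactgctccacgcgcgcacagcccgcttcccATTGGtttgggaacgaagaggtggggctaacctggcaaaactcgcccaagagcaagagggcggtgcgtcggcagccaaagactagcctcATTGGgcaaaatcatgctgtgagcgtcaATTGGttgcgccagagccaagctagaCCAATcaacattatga
Cyp51: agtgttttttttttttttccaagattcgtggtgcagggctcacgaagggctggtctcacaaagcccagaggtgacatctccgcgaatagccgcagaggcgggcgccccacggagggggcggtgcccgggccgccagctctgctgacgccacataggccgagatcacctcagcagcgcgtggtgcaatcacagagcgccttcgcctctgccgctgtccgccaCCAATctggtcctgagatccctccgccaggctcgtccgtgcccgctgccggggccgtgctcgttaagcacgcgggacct
TCACNCCAC stood in 1 of these windows, that of Hmgcs1, and CCAAT stood 4 times in Hmgcs1, 4 times in Nsdhl and 1 time in Cyp51. Among the genes that fell in each contrast, 19 of 27 had a window; 2 held TCACNCCAC (Hmgcs1 and Echdc1) and 14 held CCAAT. Among those that rose in each contrast, 8 of 20 had a window; 0 held TCACNCCAC and 4 held CCAAT. Of all 32851 windows, 1.24% held the first motif and 37.4% the second, and of the windows of genes tested 1.45% and 42.7%. Both strands were searched, and the 2 motifs do not overlap. A match is a description of the letters, not of binding.

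Hmgcs1, which makes the HMG-CoA that feeds the pathway (chromosome 13, 119690379 to 119708260), had 105, 134 and 75.6 CPM in HS_Chol livers, against 326, 204, 378, 295 and 289.8 CPM in HS livers. With cholic acid, Hmgcs1 had 52.1, 44.5, 58.8 and 55.96 CPM in Chol_CA livers, against 121, 113, 106 and 159.7 CPM in CA livers. No cholesterol-fed liver reached its own controls on either base diet. The mean log2 fold change was −1.37 ± 0.21, adjusted p = 0.000299 (SE). Nsdhl, a sterol dehydrogenase (chromosome X, 72918557 to 72958514), had 18.5, 25.2 and 16.9 CPM in HS_Chol livers, against 84.1, 70.4, 115, 81.9 and 82.6 CPM in HS livers. With cholic acid, Nsdhl had 10.7, 9.63, 15.4 and 16.6 CPM in Chol_CA livers, against 28.9, 31.8, 17.8 and 33.4 CPM in CA livers. It too was separate in both contrasts, with a mean log2 fold change of −1.59 ± 0.17, adjusted p = 2.14e-05. Cyp51, the lanosterol demethylase (chromosome 5, 4081145 to 4104746), had 34.5, 35.96 and 48.6 CPM in HS_Chol livers, against 118, 120.4, 197, 173 and 203 CPM in HS livers. With cholic acid, Cyp51 had 25.4, 17.2, 34.00 and 32.5 CPM in Chol_CA livers, against 52.2, 59.8, 43.7 and 74.5 CPM in CA livers. Its groups did not overlap on either base diet, and its mean log2 fold change was −1.55 ± 0.17, adjusted p = 2.14e-05. On the opposite strand, an exon of Akap9 overlaps Cyp51 and an exon of Gm48342 overlaps Hmgcs1.

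Sqle, squalene epoxidase and a rate-limiting step of the pathway (chromosome 15, 59315077 to 59331192), showed the deepest fall of the list. It had 3.03, 2.27 and 2.79 CPM in HS_Chol livers, against 27.6, 31.8, 50.8, 65.3 and 60.6 CPM in HS livers. With cholic acid, Sqle had 1.19, 0.917, 2.05 and 1.30 CPM in Chol_CA livers, against 1.88, 5.65, 1.97 and 6.80 CPM in CA livers. The HS livers stood far above all others, and both cholesterol-fed groups were near the low levels of CA. Its log2 fold change was −4.13 ± 0.42, adjusted p = 2.98e-06 for HS_Chol over HS and −1.54 ± 0.42, adjusted p = 0.0124 for Chol_CA over CA, and the contrasts differed (interaction 2.58, adjusted p = 0.0139). Fdps, farnesyl diphosphate synthase, differed in the same way, with 16.3, 23.9 and 18.1 CPM in HS_Chol livers, against 107, 100.2, 142, 107 and 95.1 CPM in HS livers. With cholic acid, Fdps had 6.76, 6.30, 10.8 and 13.7 CPM in Chol_CA livers, against 20.5, 18.8, 11.4 and 20.7 CPM in CA livers (interaction 1.59, adjusted p = 0.0281). Pmvk, Tm7sf2, Sc4mol and Fdft1 fell by log2 values of −1.46, −1.22, −1.35 and −1.34 in the mean, with adjusted p between 2.16e-05 and 8.39e-05. Lss, lanosterol synthase, had 23.3, 23.1 and 20.5 CPM in HS_Chol livers, against 53.1, 54.4, 63.7, 71.3 and 60.9 CPM in HS livers. With cholic acid, Lss had 11.5, 8.60, 18.5 and 21.4 CPM in Chol_CA livers, against 21.3, 31.8, 26.4 and 33.1 CPM in CA livers; the lowest CA liver lay within the Chol_CA range, and the mean log2 fold change was −1.17 ± 0.18, adjusted p = 0.000391.

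Mvk and Ebp were among the members not called as shared. Mvk, mevalonate kinase, fell on sucrose (−1.14 ± 0.22, adjusted p = 0.00341) and had a log2 fold change of 0.14 ± 0.20, adjusted p = 0.689 on cholic acid, and its contrasts differed (interaction adjusted p = 0.0123). Dhcr7, which makes cholesterol from its last precursor, fell on sucrose (−1.42 ± 0.20, adjusted p = 0.000106) and was not called on cholic acid (−0.11 ± 0.18, adjusted p = 0.725; interaction adjusted p = 0.00472). The list's count was 15 to 17 when any 1 library was left out. It was 12 without genes overlapped on the opposite strand, a fit that did not test Hmgcs1, Fdft1, Lss and Cyp51.

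**Figure D2:**
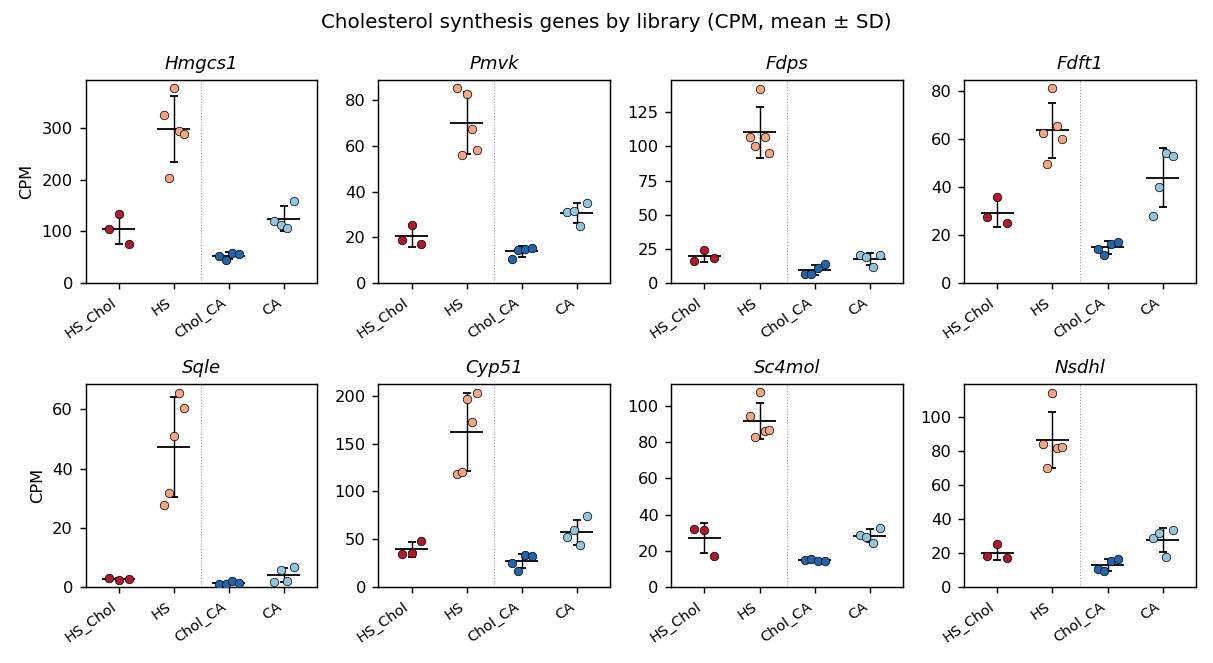
Level of 8 cholesterol synthesis genes (CPM, vertical axes from 0) in each HS_Chol, HS, Chol_CA and CA library; points are libraries, bars mark the mean and its SD. HS livers are the highest group for all 8 genes, and the cholesterol-fed mean is the lower one on both base diets, as for Hmgcs1 and Nsdhl with values in the text.

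Of 9 measured genes of SREBP2 control, 3 fell in the mean (33.3%, beside 4.3% of all genes) and none rose (median −0.34). The medians were −0.31 on sucrose and −0.36 on cholic acid, and 0 were called lower on sucrose and 2 on cholic acid. Stard4, a carrier of cholesterol between membranes, and Insig2, which retains the SREBP complex, were among those that fell (−0.90 ± 0.22, adjusted p = 0.00871; −0.52 ± 0.13, adjusted p = 0.0121). Srebf2, the gene of SREBP2 itself, and Insig1 did not pass (−0.28 ± 0.12, adjusted p = 0.144; −0.68 ± 0.25, adjusted p = 0.0744); Insig1 passed with DESeq2 and when the library Chol_CA_3 was left out.

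Outside sterol synthesis, 17 more genes fell in each contrast. Rdh11, a retinol dehydrogenase, had 27.5, 24.6 and 22.3 CPM in HS_Chol livers, against 91.7, 82.8, 134, 92.8 and 92.5 CPM in HS livers. With cholic acid, Rdh11 had 17.9, 15.2, 19.8 and 20.8 CPM in Chol_CA livers, against 43.02, 44.6, 29.7 and 41.6 CPM in CA livers, with no overlap on either base diet (−1.55 ± 0.17, adjusted p = 2.14e-05). Mmab, which prepares the vitamin B12 coenzyme, had 21.4, 26.3 and 20.3 CPM in HS_Chol livers, against 42.1, 47.9, 43.9, 41.5 and 37.2 CPM in HS livers. With cholic acid, Mmab had 15.1, 14.8, 16.02 and 19.05 CPM in Chol_CA livers, against 26.9, 22.5, 23.2 and 21.7 CPM in CA livers (−0.72 ± 0.11, adjusted p = 0.000338). Acss2, which makes acetyl-CoA from acetate, fell by a log2 value of −1.31 ± 0.17, adjusted p = 7.36e-05, and Rabggtb, a subunit of the enzyme that attaches geranylgeranyl groups to Rab proteins, by −0.55 ± 0.08, adjusted p = 0.000255. Smaller falls of mean log2 between −0.74 and −0.50 came from Gls2 (liver glutaminase), Gcat (threonine breakdown), Qdpr (recycling of tetrahydrobiopterin), Echdc1 (removal of ethylmalonyl-CoA), Gtpbp10 (mitochondrial ribosomes) and Sdhd (a subunit of succinate dehydrogenase). Among the 27 genes that fell in each contrast, 22 had the larger fall on sucrose, 21 had groups that did not overlap in either contrast (0.889% of all genes tested fell so), and 10 were cholesterol synthesis enzymes. 11 of the 47 kept both calls in all 16 fits that left out 1 library: Nsdhl, Cyp51, Sc4mol, Tm7sf2, Pmvk, Lss, Rdh11, Acss2 and Mmab among the falls, and Lpl and Amz1 among the rises. The fewest of the 47 kept was 22, without HS_Chol_0.

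Chrna4 and Prss8 fell further than most synthesis enzymes. Chrna4, a subunit of the nicotinic acetylcholine receptor (chromosome 2, 181018380 to 181043546), had 2.08, 2.27 and 2.30 CPM in HS_Chol livers, against 74.2, 50.99, 83.5, 29.5 and 20.99 CPM in HS livers. With cholic acid, Chrna4 had 0.397, 0.458, 0.586 and 1.62 CPM in Chol_CA livers, against 6.93, 9.18, 1.28 and 4.89 CPM in CA livers. HS livers were high and spread over a wide range, and the cholesterol-fed livers had no more than 2.30 CPM. The log2 fold change was −4.54 ± 0.77, adjusted p = 0.000968 on sucrose and −2.80 ± 0.80, adjusted p = 0.0161 on cholic acid. Prss8, the serine protease prostasin (chromosome 7, 127925716 to 127930104), had 3.03, 3.63 and 0.985 CPM in HS_Chol livers, against 11.5, 8.80, 11.6, 8.03 and 6.90 CPM in HS livers. With cholic acid, Prss8 had 2.78, 2.52, 2.34 and 0.866 CPM in Chol_CA livers, against 11.99, 13.5, 21.02 and 25.3 CPM in CA livers. Its groups were separate in both contrasts, and its mean log2 fold change was −2.47 ± 0.26, adjusted p = 1.63e-05.

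Several genes known to be induced by LXR rose, and none of the list fell in the mean. Of 14 measured, 6 rose (42.9%, beside 8.3% of all genes): Lpl, Abcg1, Abcg5, Abcg8, Abca1 and Srebf1, and the list's median log2 fold change was 0.36. The count was 5 to 7 when any 1 library was left out. It was 3 without genes overlapped on the opposite strand or unmatched. Lpl, lipoprotein lipase, which frees fatty acids from circulating triglyceride and is low in adult hepatocytes (chromosome 8, 68880491 to 68907448), had 113, 138 and 132 CPM in HS_Chol livers, against 36.6, 34.4, 28.9, 26.1 and 37.5 CPM in HS livers. It had 463, 436, 306 and 225 CPM in Chol_CA livers, against 122, 172, 116 and 95.2 CPM in CA livers. Cholesterol-fed livers lay above their controls in every library on both base diets, with log2 fold changes of 1.96 ± 0.22, adjusted p = 9.58e-06 and 1.50 ± 0.22, adjusted p = 0.000122 and a mean of 1.73 ± 0.16, adjusted p = 6.29e-06. The interaction did not pass (−0.46, adjusted p = 0.415), and the mean log2 fold change passed in all 16 fits without 1 library. Lpl is also abundant in fat and in macrophages. Of the fat markers, Cfd had 690, 483 and 17 reads in the 3 HS_Chol libraries and at most 2 in any HS, Chol_CA or CA library, while Adipoq had 0, 17 and 0 and Plin1 0, 14 and 0 in HS_Chol. The part of fat in the rise of Lpl was not tested. Of 20 genes of lipid-associated macrophages, 2 were called higher on sucrose and 15 on cholic acid, and of 14 Kupffer cell genes 0 and 7. The summed lipid-associated level was 1622 to 1911 CPM in HS_Chol livers, against 1714 to 2047 CPM in HS livers. With cholic acid it was 2355 to 4923 CPM in Chol_CA livers, against 2096 to 2538 CPM in CA livers. This sum includes Plin2, a droplet coat gene of hepatocytes that fell in the mean. The median log2 fold change of the 20 genes was 0.73 on sucrose and 2.12 on cholic acid. The part of macrophages in the rise of Lpl was not tested.

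Abcg5 and Abcg8 form the pump that sends sterols into bile. Abcg5 (chromosome 17, 84658234 to 84683011) had 317, 299 and 244 CPM in HS_Chol livers, against 117, 116, 83.8, 86.5 and 60.6 CPM in HS livers. With cholic acid, Abcg5 had 315, 252, 299 and 398 CPM in Chol_CA livers, against 217, 229, 188 and 199 CPM in CA livers. Its groups were separate on both base diets, and the 2 cholesterol-fed groups reached about the same level. CA livers were higher than HS livers, and the log2 fold change was 1.63 ± 0.18, adjusted p = 9.58e-06 on sucrose and 0.60 ± 0.18, adjusted p = 0.0224 on cholic acid (interaction −1.03, adjusted p = 0.0227). Abcg8 had 441, 394 and 321 CPM in HS_Chol livers, against 133, 132, 109.7, 119 and 94.8 CPM in HS livers. With cholic acid, Abcg8 had 382, 249, 428 and 480.1 CPM in Chol_CA livers, against 235, 299.6, 303 and 285 CPM in CA livers. It was called on sucrose (1.71 ± 0.20, adjusted p = 1.27e-05) and not on cholic acid (0.46 ± 0.20, adjusted p = 0.108). The 2 genes lie head to head on chromosome 17 and overlap on opposite strands, so their reads may not be fully separable. Abcg1, an exporter that is strong in macrophages, had 22.7, 17.4 and 9.85 CPM in HS_Chol livers, against 5.69, 5.87, 3.45, 9.93 and 8.70 CPM in HS livers. With cholic acid, Abcg1 had 62.9, 75.8, 45.9 and 38.97 CPM in Chol_CA livers, against 15.9, 19.3, 15.5 and 19.7 CPM in CA livers, and rose in each contrast (1.30 ± 0.32, adjusted p = 0.0324; 1.67 ± 0.29, adjusted p = 0.000568). Abca1, which loads cholesterol onto apolipoprotein A-I, rose in the mean only (0.56 ± 0.17, adjusted p = 0.0274) and lost its call in 6 of 16 fits without 1 library. Mylip, a ubiquitin ligase, had a log2 fold change of 0.41 ± 0.17, adjusted p = 0.117.

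Gramd1b, whose product carries cholesterol from the plasma membrane to the endoplasmic reticulum, rose in each contrast outside the LXR list. It had 9.10, 10.6 and 3.45 CPM in HS_Chol livers, against 3.13, 2.93, 1.88, 2.86 and 3.15 CPM in HS livers. With cholic acid, Gramd1b had 23.2, 22.6, 30.8 and 28.6 CPM in Chol_CA livers, against 7.40, 6.83, 4.34 and 3.19 CPM in CA livers, with a mean log2 fold change of 1.87 ± 0.21, adjusted p = 2.14e-05. HS_Chol_2 stood close to the HS livers and the other HS_Chol libraries well above them. Of 18 measured genes of cholesterol storage and lipoprotein traffic, 2 rose (11.1%, beside 8.3% of all genes) and 1 fell (5.56%, beside 4.3%), shares near those of all genes. Soat1, the acyltransferase of macrophages and other cells, rose (1.55 ± 0.29, adjusted p = 0.00159), with 6.55, 4.84 and 2.79 CPM in HS_Chol livers, against 0.996, 0.815, 1.41, 3.54 and 3.45 CPM in HS livers. With cholic acid, Soat1 had 25.96, 32.2, 15.9 and 12.9 CPM in Chol_CA livers, against 7.99, 6.48, 3.95 and 4.78 CPM in CA livers. Soat2, the acyltransferase of hepatocytes and gut, fell (−0.86 ± 0.13, adjusted p = 0.000389), with 37.2, 34.00 and 33.5 CPM in HS_Chol livers, against 48.4, 43.3, 42.8, 38.9 and 33.6 CPM in HS livers. With cholic acid, Soat2 had 46.5, 30.3, 38.2 and 36.6 CPM in Chol_CA livers, against 63.5, 105, 134 and 120.3 CPM in CA livers. The fall of Soat2 was larger on cholic acid (interaction −1.24, adjusted p = 0.00635), where the groups did not overlap, than on sucrose, where they did.

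**Figure D3:**
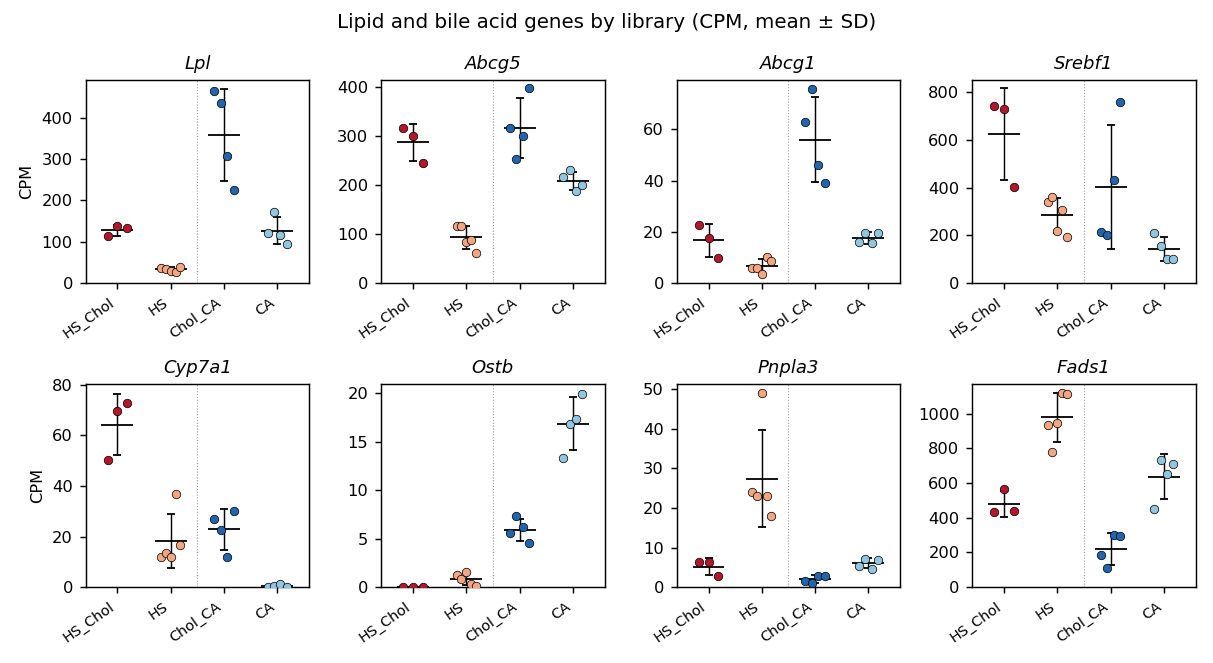
Level of 8 lipid and bile acid genes (CPM, vertical axes from 0) in each HS_Chol, HS, Chol_CA and CA library; points are libraries, bars mark the mean and its SD. Lpl, Abcg5 and Cyp7a1 are higher and Ostb, Pnpla3 and Fads1 lower with cholesterol in both pairs, while the level itself differs between the base diets.

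Srebf1 rose, and 11 genes of fatty acid synthesis fell. Srebf1, the gene of SREBP1 (chromosome 11, 60199089 to 60222581), had 741, 730.0 and 402 CPM in HS_Chol livers, against 339, 360.4, 219, 307 and 193 CPM in HS livers. With cholic acid, Srebf1 had 216, 199.7, 433 and 759 CPM in Chol_CA livers, against 209, 156, 102 and 102 CPM in CA livers. The HS groups were separate, the cholic acid groups overlapped at the low end, and the mean log2 fold change was 1.32 ± 0.25, adjusted p = 0.00196. Among 22 genes for making fatty acids, it was the 1 that rose, and 11 fell (50%, beside 4.3% of all genes), with a median log2 fold change of −0.56. On sucrose 6 were called lower and on cholic acid 7, and the mean gave 7 falls without HS_Chol_0, without genes overlapped on the opposite strand or with only libraries of positive length trend. Without genes overlapped on the opposite strand or unmatched, the list had 0 rises. Fads1, a desaturase of polyunsaturated fatty acids, had 435, 565 and 436 CPM in HS_Chol livers, against 936, 781, 947, 1120.2 and 1113 CPM in HS livers. With cholic acid, Fads1 had 186, 107, 300.1 and 294 CPM in Chol_CA livers, against 450.1, 734, 649 and 711 CPM in CA livers. Neither pair of groups overlapped, and the mean log2 fold change was −1.28 ± 0.18, adjusted p = 0.000157. Pnpla3, a lipid droplet lipase (chromosome 15, 84167837 to 84187236), had 6.39, 6.35 and 2.79 CPM in HS_Chol livers, against 23.9, 22.97, 48.9, 23.1 and 17.99 CPM in HS livers. With cholic acid, Pnpla3 had 1.59, 0.917, 2.83 and 2.71 CPM in Chol_CA livers, against 5.41, 7.18, 4.54 and 6.91 CPM in CA livers (−1.97 ± 0.34, adjusted p = 0.000892). Me1, the malic enzyme that supplies NADPH, fell in the mean (−1.53 ± 0.16, adjusted p = 1.63e-05) and more on cholic acid than on sucrose (interaction −1.46, adjusted p = 0.00607). Fasn, the fatty acid synthase gene, and Scd1, the stearoyl desaturase gene, were not called, with log2 fold changes of −0.33 ± 0.31, adjusted p = 0.56 and 0.17 ± 0.24, adjusted p = 0.719; Fasn ranged from 109 to 888 CPM among the 4 Chol_CA livers. Of 14 lipid droplet genes, 3 fell (21.4%, beside 4.3%), Plin2, Plin5 and Hsd17b13, and 1 rose (7.14%, beside 8.3%), Plin4. Plin2, the main droplet coat protein gene of hepatocytes, had 369.9, 355 and 319.8 CPM in HS_Chol livers, against 658, 442, 559.5, 532 and 707 CPM in HS livers. With cholic acid, Plin2 had 304, 207, 206 and 169.7 CPM in Chol_CA livers, against 625, 361, 324 and 448 CPM in CA livers (−0.86 ± 0.14, adjusted p = 0.000762).

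Cyp7a1 rose more than any other gene of bile acid synthesis. It lies at chromosome 4, 6265612 to 6275633 and had 50.3, 69.8 and 72.9 CPM in HS_Chol livers, against 12.1, 13.4, 12.1, 37.01 and 16.8 CPM in HS livers. It had 27.02, 22.5, 11.7 and 30.1 CPM in Chol_CA livers, against 0.118, 0.236, 1.38 and 0.212 CPM in CA livers. CA livers had almost none, and the cholesterol-fed livers of each pair lay above their controls in every library. In reads, the 4 CA libraries held 1, 2, 14 and 2, so the size of the ratio on cholic acid rests on few reads. The log2 fold change was 1.81 ± 0.38, adjusted p = 0.00955 on sucrose and 5.43 ± 0.56, adjusted p = 4.21e-06 on cholic acid, with an interaction of 3.62 (adjusted p = 0.00357). Of 16 measured genes of bile acid synthesis, 3 rose (18.8%, beside 8.3% of all genes), Cyp7a1, Cyp8b1 and Cyp2c70, and 2 fell (12.5%, beside 4.3%), Cyp39a1 and Akr1d1; the contrasts differed for 8. Cyp8b1, which makes cholic acid, had 522, 416 and 484 CPM in HS_Chol livers, against 304, 449, 362, 387 and 421 CPM in HS livers. With cholic acid, Cyp8b1 had 9.67, 11.8, 4.40 and 5.52 CPM in Chol_CA livers, against 0.705, 1.18, 1.58 and 2.12 CPM in CA livers. The sucrose groups overlapped in the HS_Chol_1 library alone, with a log2 fold change of 0.30 ± 0.25, adjusted p = 0.648, against 2.45 ± 0.33, adjusted p = 5.47e-05 on cholic acid, where both groups were below the HS_Chol and HS livers. The mean was 1.38 ± 0.21, adjusted p = 0.000299. Cyp2c70, which makes muricholic acids in mice, passed in the mean (0.46 ± 0.14, adjusted p = 0.0366) and lost its call in 8 of 16 fits without 1 library. Cyp39a1, an oxysterol hydroxylase, fell in each contrast, with 4.63, 10.9 and 6.40 CPM in HS_Chol livers, against 23.1, 14.99, 27.3, 24.8 and 18.4 CPM in HS livers. With cholic acid, Cyp39a1 had 18.8, 14.4, 34.7 and 15.3 CPM in Chol_CA livers, against 26.4, 45.7, 72.6 and 50.1 CPM in CA livers (−1.40 ± 0.24, adjusted p = 0.000892).

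Ostb (now Slc51b), a subunit of a basolateral bile acid exporter induced by FXR (chromosome 9, 65412714 to 65422955), fell in each contrast. It had 0 reads in all 3 HS_Chol libraries, against 9, 5, 10, 2 and 1 reads in the HS libraries. With 3 reads over the HS_Chol group as the floor (0.158 CPM), the HS mean of 0.817 CPM was at least 5.18-fold higher. That bound leaves out the spread of HS, where HS_4 had 0.150 CPM. With cholic acid, Ostb had 5.56, 7.34, 6.15 and 4.55 CPM in Chol_CA livers, against 13.3, 16.8, 17.4 and 19.97 CPM in CA livers, groups that did not overlap, with a log2 fold change of −1.51 ± 0.30, adjusted p = 0.00176. Of 15 measured genes of bile acid transport and FXR action, 3 fell (20%, beside 4.3% of all genes) and 1 rose (6.67%, beside 8.3%). Leaving out 1 library gave 1 (without HS_0 or HS_1) to 5 falls (without CA_0), and the count of falls was 1 without genes overlapped on the opposite strand. Slco1a4, a bile acid and drug uptake carrier, fell in the mean (−2.12 ± 0.32, adjusted p = 0.000368), and the fall lay on cholic acid, where it had 22.4, 7.11, 16.1 and 11.3 CPM in Chol_CA livers, against 119.8, 206, 438 and 249 CPM in CA livers (interaction −4.07, adjusted p = 0.000375). Nr0b2, the FXR target SHP that represses Cyp7a1, had a mean log2 fold change of −0.50 ± 0.18, adjusted p = 0.0747; it passed with DESeq2, in the fit with a term for the length trend and in 3 of 16 fits without 1 library.

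Genes of antigen presentation and macrophages rose, with their highest values in a few libraries. Of 14 measured genes of MHC class II and dendritic cells, 10 rose and none fell (71.4%, beside 8.3% of all genes), with a median log2 fold change of 2.06, of 1.86 on sucrose and 2.32 on cholic acid. Taken one at a time, 1 of the 14 was called higher on sucrose and 13 on cholic acid. Cd74, the invariant chain that guides class II molecules (chromosome 18, 60803848 to 60812652), had 599, 256 and 136 CPM in HS_Chol livers, against 114, 71.2, 56.5, 65.7 and 70.3 CPM in HS livers. With cholic acid, Cd74 had 3640.4, 5598, 1228 and 878 CPM in Chol_CA livers, against 378, 237, 98.6 and 165 CPM in CA livers. The groups did not overlap on either base diet, HS_Chol_0 was the highest HS_Chol liver and Chol_CA_0 and Chol_CA_1 the highest of all. The log2 fold change was 2.13 ± 0.55, adjusted p = 0.0454 on sucrose and 3.69 ± 0.60, adjusted p = 0.000292 on cholic acid. Cd74 was the 1 member called on sucrose, and it kept that call in 6 of 16 fits without 1 library. H2-Ab1, a class II chain, had 262, 91.4 and 49.4 CPM in HS_Chol livers, against 45.5, 24.4, 19.6, 22.7 and 26.7 CPM in HS livers. With cholic acid, H2-Ab1 had 954, 1722, 312 and 268 CPM in Chol_CA livers, against 136, 77.4, 27.9 and 60.2 CPM in CA livers (2.85 ± 0.44, adjusted p = 0.000417). Ciita, the master activator of class II genes, followed (2.15 ± 0.32, adjusted p = 0.000299), with 7.67 CPM in HS_Chol_0 and at most 2.27 CPM in the other HS_Chol livers. The summed level of the list was 252 to 1241 CPM in HS_Chol livers, against 119 to 249 CPM in HS livers, and 1599 to 10054 CPM in Chol_CA livers, against 189 to 745 CPM in CA livers, and no member was at 0 throughout a group. HS_Chol_0, Chol_CA_0 and Chol_CA_1 are also the cholesterol-fed libraries with a negative length trend, and the part of that trend in these results was not tested. Without HS_Chol_0 the list had 7 rises, and with only the libraries of positive trend it again had 7. In the fit with a term for the direction of the trend it had 11.

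Several genes of myeloid cells were among the 20 that rose in each contrast. Mpeg1, a pore-forming protein of macrophages (chromosome 19, 12460779 to 12465283), had 346, 159 and 80.9 CPM in HS_Chol livers, against 58.2, 60.4, 44.6, 91.6 and 86.97 CPM in HS livers. With cholic acid, Mpeg1 had 611, 649.8, 379 and 277 CPM in Chol_CA livers, against 140.0, 105, 46.1 and 86.5 CPM in CA livers. One HS_Chol liver, HS_Chol_2, lay inside the HS range. Its log2 fold change was 1.51 ± 0.39, adjusted p = 0.0474 on sucrose and 2.35 ± 0.41, adjusted p = 0.000497 on cholic acid. Wdfy4, needed by dendritic cells to cross-present antigen, had 11.5, 5.74 and 6.07 CPM in HS_Chol livers, against 2.56, 1.96, 2.82, 3.40 and 4.80 CPM in HS livers. With cholic acid, Wdfy4 had 19.2, 21.4, 15.8 and 18.3 CPM in Chol_CA livers, against 7.76, 6.95, 4.84 and 6.48 CPM in CA livers, without overlap in either contrast (1.42 ± 0.18, adjusted p = 6.68e-05). Nckap1l, an actin regulator of blood cells, rose by a log2 value of 1.66 ± 0.22, adjusted p = 0.000117, Cd72, a lectin of B cells and myeloid cells, by 1.38 ± 0.25, adjusted p = 0.00126, and Tlr9, the sensor of unmethylated DNA, by 2.08 ± 0.33, adjusted p = 0.000459, on at most 16 reads in an HS_Chol library. Rab7b (listed under its clone name 5430435G22Rik), a GTPase of late endosomes, rose by 1.94 ± 0.29, adjusted p = 0.000291, and Sh3pxd2b, a scaffold of podosomes, by 2.18 ± 0.26, adjusted p = 5.18e-05. Of these 7, only Wdfy4 kept its call on sucrose in as many as 15 of 16 fits without 1 library; Mpeg1, Nckap1l and Tlr9 kept it in 5.

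Markers of resident and of lipid-associated macrophages rose in the mean. Of 14 Kupffer cell genes, 7 rose and none fell (50%, beside 8.3% of all genes), with medians of 0.70 on sucrose and 0.74 on cholic acid; 0 were called higher on sucrose and 7 on cholic acid. Cd5l, a secreted protein of resident macrophages, had 179.5, 96.4 and 49.6 CPM in HS_Chol livers, against 32.02, 28.5, 25.4, 56.9 and 79.8 CPM in HS livers. With cholic acid, Cd5l had 506, 703, 352 and 291 CPM in Chol_CA livers, against 179, 142, 72.4 and 137 CPM in CA livers (1.54 ± 0.28, adjusted p = 0.00125), while Clec4f, which defines Kupffer cells in mice, was not called (0.60 ± 0.23, adjusted p = 0.0861). The summed Kupffer level was 482 to 884 CPM in HS_Chol livers, against 408 to 611 CPM in HS livers, and 1185 to 3116 CPM in Chol_CA livers, against 645 to 1118 CPM in CA livers. Of 20 genes of lipid-associated macrophages, 12 rose (60%, beside 8.3% of all genes) and 1, Plin2, fell, with medians of 0.73 on sucrose and 2.12 on cholic acid; 2 were called higher on sucrose and 15 on cholic acid. Trem2, the lipid-sensing receptor that marks these cells, had 0.479, 0.604 and 0.656 CPM in HS_Chol livers, against 0.569, 0, 0.314, 0.272 and 1.35 CPM in HS livers. With cholic acid, Trem2 had 14.6, 21.3, 7.33 and 4.98 CPM in Chol_CA livers, against 1.18, 0.353, 1.18 and 0.744 CPM in CA livers. It and Gpnmb passed in the mean (1.98 ± 0.52, adjusted p = 0.0159; 3.90 ± 0.52, adjusted p = 0.00013), but the contrasts differed (interaction 3.57, adjusted p = 0.0371, and 5.52, adjusted p = 0.00282). Gpnmb had 2.08, 0.907 and 0 CPM in HS_Chol livers, against 0.569, 0.652, 0.314, 0.408 and 0.3 CPM in HS livers. With cholic acid, Gpnmb had 176, 165, 108 and 59.7 CPM in Chol_CA livers, against 0.94, 0.589, 2.07 and 1.27 CPM in CA livers. Trem2 lost its call in the mean without HS_Chol_1 or HS_Chol_2. Neither gene was called on sucrose, where Trem2 had 3 to 4 reads in an HS_Chol library and 0 to 9 in an HS library. Without HS_Chol_0 the counts were 4 Kupffer and 7 lipid-associated genes, and with only libraries of positive length trend 0 and 7. In the fit with a term for the direction of the trend they were 7 and 13.

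Inflammation and matrix genes rose in the mean mainly through the cholic acid pair. Beside 8.3% of all genes, 15 of 28 chemokine and inflammation genes (53.6%), 11 of 25 lysosomal genes (44%), 6 of 11 neutrophil and monocyte genes (54.5%) and 6 of 24 acute phase and complement genes (25%) rose. Without HS_Chol_0 these counts were 10, 7, 2 and 3. The lysosomal count was also 7 without HS_Chol_1, Chol_CA_0 or CA_2, and the neutrophil and monocyte count was 4 without HS_Chol_1. On sucrose none of these 4 lists had a called rise. Saa3, an acute phase protein of macrophages and hepatocytes, had 17.2, 3.78 and 2.79 CPM in HS_Chol livers, against 1.28, 2.44, 1.41, 1.09 and 1.95 CPM in HS livers. With cholic acid, Saa3 had 129, 403, 33.3 and 28.4 CPM in Chol_CA livers, against 9.76, 3.18, 2.96 and 3.08 CPM in CA livers (3.63 ± 0.56, adjusted p = 0.000381). Of 33 matrix and fibrosis genes, 23 rose and none fell (69.7%, beside 8.3% of all genes), with medians of 0.24 on sucrose and 1.47 on cholic acid; 0 were called on sucrose and 31 on cholic acid, and 13 rose in the mean without HS_Chol_1. Col1a1, a chain of type I collagen, had 18.8, 14.5 and 11.2 CPM in HS_Chol livers, against 16.1, 7.33, 5.65, 8.44 and 4.35 CPM in HS livers. With cholic acid, Col1a1 had 159, 188, 49.04 and 36.9 CPM in Chol_CA livers, against 26.6, 7.30, 5.13 and 9.67 CPM in CA livers. The sucrose groups overlapped, and the log2 fold change was 0.82 ± 0.56, adjusted p = 0.557 on sucrose and 3.16 ± 0.54, adjusted p = 0.000443 on cholic acid. Col1a2 and Col6a3, further collagen chains, were called different between the contrasts (interaction 1.88, adjusted p = 0.0468, and 1.38, adjusted p = 0.0171). None of 14 T, NK and B cell genes (median log2 fold change 0.89) and none of 14 endothelial genes (median 0.16) was called in the mean; the T, NK and B cell sum was 17.7 to 58.9 CPM in HS_Chol livers, against 20.4 to 53.3 CPM in HS livers, and 37.3 to 116 CPM in Chol_CA livers, against 17.9 to 68.6 CPM in CA livers. The part of changed cell numbers in the macrophage and matrix results was not tested.

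**Figure D4:**
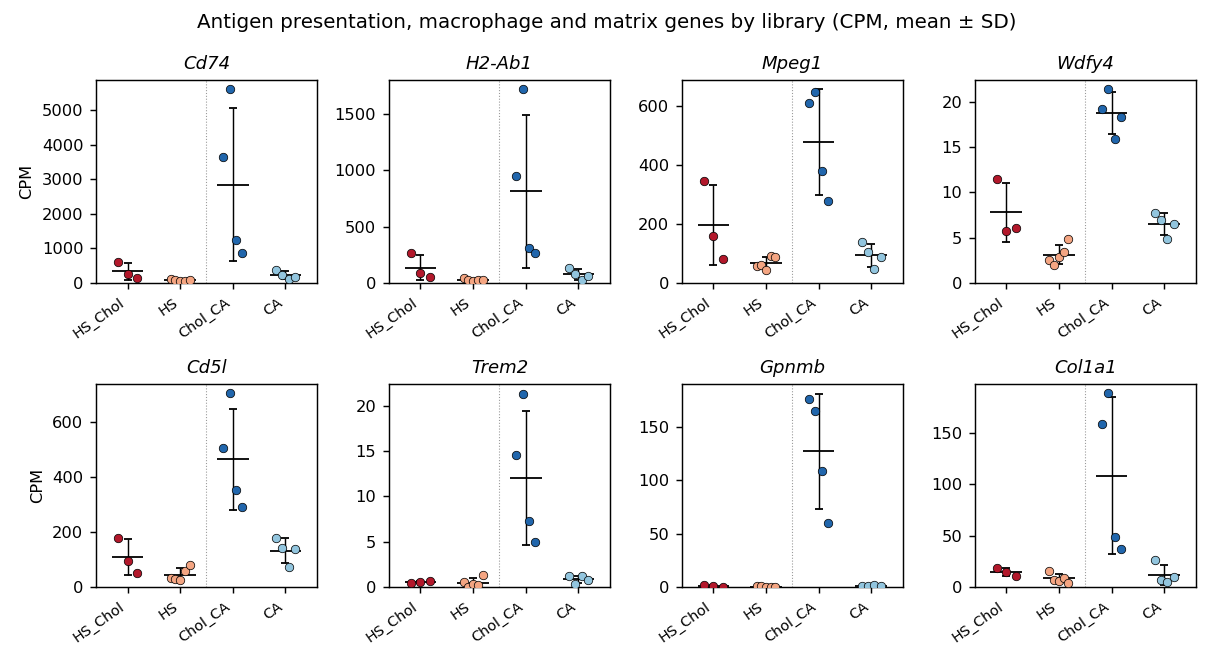
Level of 8 antigen presentation, macrophage and matrix genes (CPM, vertical axes from 0) in each HS_Chol, HS, Chol_CA and CA library; points are libraries, bars mark the mean and its SD. Cd74 and Wdfy4 are separate in both pairs, while Trem2, Gpnmb and Col1a1 stand out in Chol_CA livers and overlap between HS_Chol and HS.

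Among the other rises in each contrast, Adam11 and Amz1 were the largest on sucrose. Adam11, a member of the ADAM family without protease activity (chromosome 11, 102761439 to 102780262), had 74.7, 79.6 and 71.9 CPM in HS_Chol livers, against 10.1, 13.8, 7.22, 6.67 and 5.10 CPM in HS livers. With cholic acid, Adam11 had 68.4, 105, 65.7 and 78.4 CPM in Chol_CA livers, against 62.8, 32.6, 17.4 and 9.46 CPM in CA livers. CA livers spread widely and HS livers were uniformly low. The log2 fold change was 3.14 ± 0.40, adjusted p = 4.09e-05 and 1.38 ± 0.38, adjusted p = 0.0131. Amz1, a metallopeptidase (chromosome 5, 140724127 to 140761439), had 4.15, 4.38 and 4.43 CPM in HS_Chol livers, against 0.712, 0.326, 0.471, 0.952 and 1.20 CPM in HS livers. With cholic acid, Amz1 had 6.62, 8.37, 3.81 and 2.49 CPM in Chol_CA livers, against 1.65, 1.06, 0.888 and 1.17 CPM in CA livers (2.33 ± 0.28, adjusted p = 5.18e-05), and an exon of Gna12 overlaps it on the opposite strand. Gas7, an actin-binding protein, rose by a log2 value of 1.19 ± 0.14, adjusted p = 4.1e-05 and Eif4e3, a cap-binding protein, by 1.75 ± 0.22, adjusted p = 7.14e-05. Smaller rises came from Tcof1, which acts in ribosomal RNA synthesis (0.56 ± 0.10, adjusted p = 0.000918), Capn1, a calpain (0.52 ± 0.09, adjusted p = 0.00124), and Zfp703, a zinc finger protein (0.79 ± 0.16, adjusted p = 0.00315).

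Ranked by the smaller of the 2 contrasts' log2 changes, among genes of at least 5 CPM whose groups were separate in both, the 12 largest rises were H2-DMa, Saa3, H2-Ab1, Cd74, H2-DMb1, Cyp7a1, Hk3, Igsf6, Procr, Lpl, Gramd1b and Pld4. The 12 largest falls were Cyp2b9, Prss8, Pnpla3, Ostb, Tstd1, Mfsd2a, Hmgcs1, Tm7sf2, Pmvk, Fdft1, Rdh11 and Nsdhl. Over all genes, the groups of both contrasts were separate in the same direction for 121 as rises (0.961%) and 112 as falls (0.889%). Hk3, a hexokinase of myeloid cells, and Igsf6, an immunoglobulin superfamily protein of myeloid cells, had mean log2 fold changes of 2.02 and 2.17. Mfsd2a, a carrier of lysophosphatidylcholine with docosahexaenoic acid, had 43.9, 67.2 and 15.6 CPM in HS_Chol livers, against 145, 73.6, 129.7, 84.9 and 79.2 CPM in HS livers. With cholic acid, Mfsd2a had 3.31, 4.70, 8.69 and 3.36 CPM in Chol_CA livers, against 29.7, 45.7, 46.2 and 140.4 CPM in CA livers (−2.48 ± 0.42, adjusted p = 0.000796). Cyp2b9, a drug-metabolizing P450, had 0.16, 0 and 0.164 CPM in HS_Chol livers, against 1.42, 0.489, 0.784, 0.408 and 0.3 CPM in HS livers. With cholic acid, Cyp2b9 had 0.397, 0.229, 0.0977 and 0.216 CPM in Chol_CA livers, against 24.6, 121, 291 and 232 CPM in CA livers. Its log2 fold change was −2.53 ± 1.61, adjusted p = 0.532 on sucrose, where every library held few or no reads, and −9.44 ± 0.74, adjusted p = 1.53e-07 on cholic acid.

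Some genes of energy metabolism fell in the mean. Of 24 nuclear-encoded subunits of the respiratory chain, 9 fell and none rose in the mean (37.5%, beside 4.3% of all genes), with medians of −0.38 on sucrose and −0.29 on cholic acid. Atp5b, a catalytic subunit of ATP synthase, had 993, 1067 and 1089.6 CPM in HS_Chol livers, against 1114, 1184, 1259, 1135 and 1134 CPM in HS livers. With cholic acid, Atp5b had 783, 705, 812 and 829.8 CPM in Chol_CA livers, against 908, 1029.5, 1329 and 1366 CPM in CA livers (−0.36 ± 0.09, adjusted p = 0.0108). No member was called on sucrose, and leaving out 1 library gave 5 (without HS_2) to 10 falls, with 6 without HS_Chol_0 or Chol_CA_2. The share of reads on mitochondrial mRNA was 8.42 to 10.1% in HS_Chol livers, against 10.5 to 12.3% in HS livers, and 3.87 to 9.27% in Chol_CA livers, against 8.78 to 9.68% in CA livers. It did not overlap between the sucrose groups, Chol_CA_1 was the lowest library, and its part in these falls was not tested. Of 16 periportal genes 5 fell (31.2%, beside 4.3% of all genes; 3 without HS_2, HS_Chol_0 or Chol_CA_2), among them Gls2, Ass1 and Arg1. Fatty acid oxidation did not move as 1 group. In the mean, 6 of 29 genes fell (20.7%, beside 4.3% of all genes). Leaving out 1 library gave 3 falls (without HS_0, HS_2 or HS_Chol_0) to 11 (without HS_3). On cholic acid 25 of the 29 fell, beside 7.8% of all genes, while 5 rose on sucrose, beside 1.6%. The contrasts differed for 22, beside 6% of all genes. Cyp17a1, a steroid hydroxylase, passed in the mean (−1.84 ± 0.27, adjusted p = 0.000291) through sucrose, with 1.92, 2.72 and 2.30 CPM in HS_Chol livers, against 37.4, 16.9, 34.5, 20.4 and 21.9 CPM in HS livers. With cholic acid, Cyp17a1 had 1.72, 2.64, 2.15 and 2.06 CPM in Chol_CA livers, against 2.82, 2.59, 1.68 and 2.76 CPM in CA livers (interaction adjusted p = 0.000805). Ces2a and Cyp2c55, drug-metabolizing enzymes, and AL831764.1 were the genes with the smallest adjusted p among those with opposite signs; Ces2a had log2 fold changes of 0.68 ± 0.22, adjusted p = 0.149 on sucrose and −3.49 ± 0.24, adjusted p = 4.8e-08 on cholic acid.

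**Figure D5:**
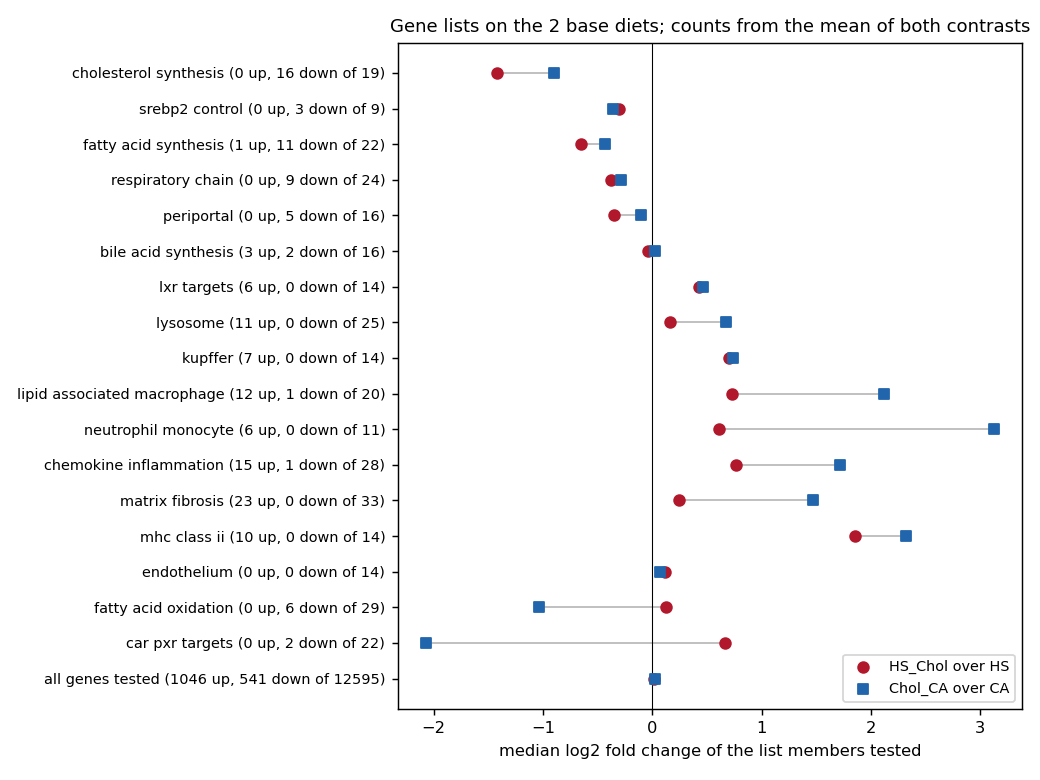
Median log2 fold change (horizontal axis) of the tested members of 17 gene lists and of all genes, for HS_Chol over HS (circles) and Chol_CA over CA (squares); each label gives how many members were called higher and lower in the mean of both. Cholesterol synthesis lies left of 0 and MHC class II right of 0 in both contrasts, whereas fatty acid oxidation and CAR and PXR targets have medians of opposite sign.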

How the data were processed

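Total RNA of whole liver gave stranded TruSeq libraries and single-end reads of 50 bases, per the labels' protocols. What the authors deposited is a table of raw counts of reads for 34436 gene symbols; alignment was to mm10 with STAR 2.6.1c, per the submitters' processing notes. Which strand was counted is not given in the sources used here. Columns were matched to diets by name; their numbers start at 0 and the labels' at 1, so no column was tied to a single labelled sample, and 3 columns that match no label were not used. One HS sample carries a normal chow label and could not be told from the other HS columns, so each HS library was left out in turn.

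Counts were fitted with edgeR 4.0.16 in R 4.3.3 (TMM, filterByExpr on diet, robust quasi-likelihood fit, 1 mean per diet over 20 libraries, 12595 genes kept, common biological coefficient of variation 0.235). The contrast was 0.5 × (HS_Chol − HS) + 0.5 × (Chol_CA − CA). Errors on log2 fold changes are SE from the fit; Benjamini-Hochberg adjustment ran over all genes kept. In parentheses, a log2 fold change ± SE and its adjusted p, with no contrast named, refer to the mean of both contrasts. The floor for a group at 0 was 3 reads over the group and covers counting error only. Of the symbols, 29014 were found in GENCODE M21 (GRCm38) by name, 1876 by an older name and 3546 not at all. Coordinates are 1-based. Promoters came from the RefSeq table of GRCm38.p6. The 36 gene lists (673 entries, 614 tested) and the rule for named genes were chosen with earlier results of these data known. The rule took the 12 largest rises and falls by the smaller contrast, up to 6 or 2 called members per list, fixed sterol and macrophage genes, and 3 genes of opposite sign, 89 in all; the other genes named were called in each contrast, illustrate a list or were chosen after their values were seen. DESeq2 1.42.0, other filters, the 4 diets alone, a replicate block, the length trend, an additive fit and leaving out each library were tried. The procedure was tested on simulated data. Some genes of the lists are counted but not reported here by name.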

Additional observations from a re-analysis of the deposited data

Results flagged for a closer look

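Among the 89 named genes, 16 of 267 groups of 4 or 5 libraries had a library far from the others, its gap to the nearest above the 95% limit of Dixon's test. Chance flags about 1 in 20 such groups. In CA_0 the level stood apart for Saa3 (9.76 CPM), Hmox1 (43.8 CPM), Prom1 (11.4 CPM) and Mylip (12.9 CPM). In HS_0 the level stood apart for H2-Ab1 (45.5 CPM), Cd74 (114 CPM), H2-DMb1 (2.99 CPM) and Col1a2 (14.8 CPM). In HS_3 the level stood apart for Cyp7a1 (37.0 CPM). In CA_2 the level stood apart for Cyp7a1 (1.38 CPM). In HS_2 the level stood apart for Gramd1b (1.88 CPM), Pld4 (2.04 CPM), Pnpla3 (48.9 CPM), Rdh11 (134 CPM) and Me1 (259 CPM). In CA_3 the level stood apart for Mfsd2a (140.4 CPM). 

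For 21 of the 89 named genes the response to cholesterol differed between the base diets by the interaction test of edgeR. Each gene is given with Chol_CA over CA minus HS_Chol over HS on the log2 scale and its adjusted p. The difference was positive for Cyp7a1 (3.62, 0.00357), Sqle (2.58, 0.0139), Cyp8b1 (2.15, 0.00336), Cyp17a1 (3.30, 0.000805), Gpnmb (5.52, 0.00282), Cxcl16 (1.86, 0.0175), Lyz2 (2.92, 0.0234), Col6a3 (1.38, 0.0171), Col1a2 (1.88, 0.0468) and Trem2 (3.57, 0.0371). It was negative for Abcg5 (−1.03, 0.0227), Abcg8 (−1.26, 0.0098), Akr1d1 (−1.42, 0.0142), Slco1a4 (−4.07, 0.000375), Soat2 (−1.24, 0.00635), Me1 (−1.46, 0.00607), Plin4 (−1.90, 0.0374), Prom1 (−4.32, 0.0183), AL831764.1 (−4.75, 5.93e-06), Ces2a (−4.17, 1.15e-07) and Cyp2c55 (−7.14, 1.9e-06).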

How the results depend on the processing

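No named gene changed sign in the mean contrast under any alternative run. Leaving out 1 library turned the sign on sucrose for Akr1d1, Cyp2b10, Cyp2c70, Lyz2, Nr0b2, Prom1, Slco1a4 and Trem2, and on cholic acid for AL831764.1 and Cela1; none of these was called in the contrast concerned. Without genes overlapped on the opposite strand or unmatched, 357 genes fell as shared and the interaction passed for 473. With the direction of the length trend as a term, 956 fell as shared and the stricter test of both contrasts called 13 higher and 7 lower; with only libraries of positive trend, 608 rose as shared, the stricter test called 0 higher and 2 lower, and the interaction passed for 1416. The stricter test called 8 higher and 18 lower with DESeq2, 1 lower with no filter and 4 lower with the 4 diets alone; calling each contrast by its own adjusted p, added after seeing the data, gave 20 and 27. The cause of these shifts was not tested, apart from the smaller number of genes or samples that some alternatives have by construction. Leaving out 1 library gave 555 (without HS_Chol_0) to 1193 (without CA_0) genes higher and 360 (without HS_Chol_0) to 639 (without HS_4) lower as shared, 0 to 2 higher and 0 to 1 lower by the stricter test, and 448 (without CA_2) to 1315 (without CA_0) with an interaction. Calls in each contrast then ran from 7 to 35 higher and 17 to 32 lower. With the replicate block by table number, 886 rose, 430 fell and 577 had an interaction; same-numbered libraries of a pair had correlated deviations from −0.24 to 0.37, so the numbers were not taken as pairing. Of the 89 named genes, 13 lost their call with only libraries of positive trend, and 1 to 5 when 1 library was left out. At these depths a level of 3 reads over a group corresponds to 0.158 CPM in HS_Chol and 0.0820 CPM in CA.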
